A study of Bos taurus with 4 samples.

Results

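Fetal fat was compared with adult fat by setting the fetal bovine library (ATFB) against the adult bull (ATAB), adult heifer (ATAH) and adult steer (ATAS) libraries. These are all 4 libraries of the series. Each held RNA of subcutaneous adipose tissue from a pool of 5 Chinese Qinchuan animals, so a stage or sex is 1 library and the spread between animals cannot be seen. The label of ATFB gives embryos of 200 to 250 days, of unstated sex, and the study's methods give the upper end of that range. The adults were 18 to 24 months old by their labels. Steers are castrated males, and the labels give no treatment of any other group. By the study, the embryos came from a local slaughterhouse and the adults from a livestock company, where they were fed a mixed ration. Source and stage therefore cannot be told apart. Differences are described only where ATFB stood apart from each adult library, and lists of fat storage genes, cytosolic ribosomal proteins and hemoglobins are not described. Fat storage genes remain in the lists below where a second role puts them there: AQP7 among aquaporins, CD36 among adhesion genes and CFD among complement genes, all 3 called lower, and GPD1 and PCK1 among glycolysis genes, neither called. Adipocyte markers were used to check the tissue label.

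Before birth, subcutaneous fat is laid down by fibroblast-like precursors in a loose bed of collagen and elastic fibres, and the first small adipocytes form around growing vessels. In the adult, the depot consists of large lipid-filled adipocytes with a thin matrix, and it is patrolled by macrophages and lymphocytes. Adult adipocytes also answer to hormones through nuclear receptors, adrenergic receptors and the growth hormone receptor. The lists below follow these roles, from the matrix and growth control to signals, protein synthesis, metabolism and immune cells.

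The files listed 36373 transcript clusters, most of them expressed sequence tags, and 25584 had enough reads in at least 1 library to be tested. The libraries held 15274529 to 16148487 uniquely matched reads. A cluster was called higher or lower in ATFB where edgeR's quasi-likelihood test gave an adjusted p of 0.05 or less and the log2 ratio of RPKM (reads per kilobase of cluster, scaled to the matched reads of the library) to each adult library was at least 1 in size, in the same direction. By this rule 1630 clusters (6.37%) were called higher in ATFB and 2056 (8.04%) lower. Among 5211 tested genes with a symbol, counted once each, 254 (4.87%) were called higher and 676 (13.0%) lower. These 2 last shares are the background for the counts below, and with ACTB scaling they become 7.81% and 9.9%. The median log2 ratio of ATFB to the adult mean was -0.35 over the named genes and -0.09 over all clusters.

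ATFB has no replicate, so the test assumes that it varies like the 3 adult libraries, and an exact permutation test of 1 library against 3 cannot give a p below 0.25. The 3 ratios of a gene share ATFB and are not independent. Scaling to ACTB in place of library totals moved the median over all clusters to 0.17, and it moved the share of higher calls from 44.2% to 62.4% of all called clusters. With TMM factors that share was 41.8%. ATAB stood apart from the other adult libraries, with a TMM factor of 0.878 against 1.06 and 1.08. Without ATAB the quasi-likelihood test called no cluster, while 9464 had an unadjusted p under 0.05 and a likelihood ratio test on the same libraries called 2943 higher and 4798 lower.

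Called clusters differed in length and kind. Clusters called higher in ATFB had a median length of 898 bases, and those called lower 1415 bases. Their median GC contents were 42.6% and 52.8%, against 46.9% for all tested clusters. Of 6906 tested clusters of at least 2000 bases, 3.53% were called higher and 11.3% lower. Expressed sequence tags read from the 3′ end were called higher in 8.59% and lower in 3.35%, and those read from the 5′ end in 5.71% and 8.69%. Among clusters of at least 4000 bases with 200 to 1000 reads in each library, reads covered a median of 84% of the bases in ATFB and 89.3% to 91.7% in the adult libraries, while between 500 and 1000 bases the medians were 95.1% and 93.6% to 94.1%. The median reads of those long clusters were 431 in ATFB and 486 to 652 in the adults. The part of cluster length, GC content and RNA quality in the calls was not tested.

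**Figure D1:**
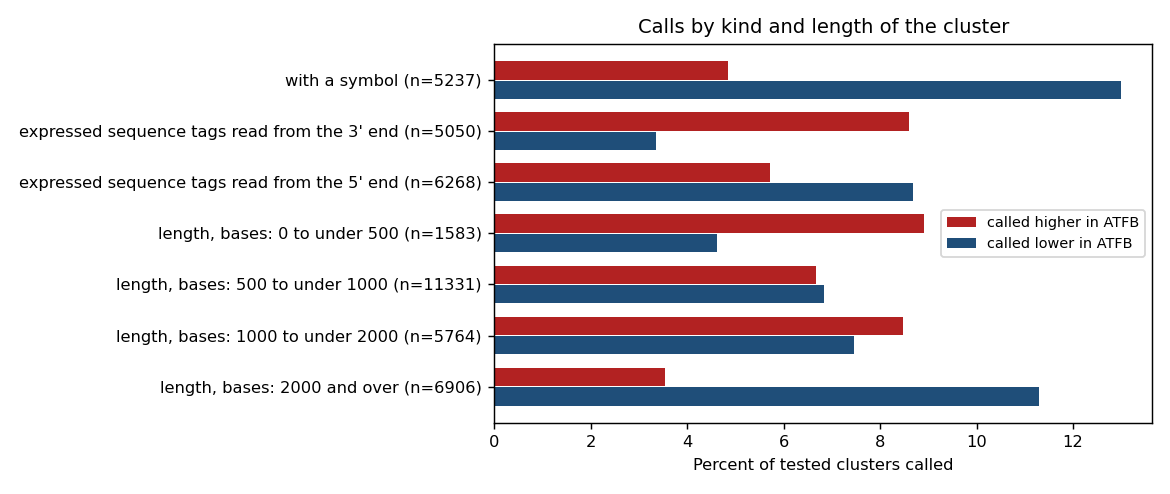
Percent of tested clusters called higher (red) or lower (blue) in ATFB, by kind of cluster and by length in bases, with the number tested in brackets. Clusters of 2000 bases and over were called lower more often (11.3%) than higher (3.53%), and 3′ sequence tags the other way round (3.35% and 8.59%).

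The adipose label was checked against 17 measured adipocyte markers. All had reads in ATFB, and 11 were called lower there. Their summed level was 1746 RPKM in ATFB and 9199 to 12889 RPKM in the adult libraries. Caveolin CAV1, which had 267 RPKM in ATFB and 339 ± 50.3 RPKM (SD, n = 3) in the adults, was among those not called. In pooled tissue, fewer cells of a type and less RNA per cell cannot be told apart, here or in any list below.

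The 14 measured preadipocyte and fibroblast markers summed to 11864 RPKM in ATFB and to 2977 to 8337 RPKM in the adults, and DLK1 and decorin DCN were called higher. DLK1, a membrane protein that holds preadipocytes undifferentiated, had 566 RPKM in ATFB and at most 1.91 RPKM in any adult library. The collagens COL1A1 and COL3A1 were not called, since ATAB, at 3412 and 2903 RPKM, lay near or above ATFB at 4167 and 1980 RPKM.

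Genes of collagen and elastic fibres and of matrix proteoglycans were often called higher in ATFB. Of 39 tested genes for elastic fibres, proteoglycans and matricellular proteins, 13 (33.3%) were called higher and 1 lower, with a median log2 ratio of 0.89. Periostin POSTN, a matricellular protein of growing connective tissue, had 741 RPKM in ATFB against 14.5, 16.2 and 13.1 RPKM in ATAB, ATAH and ATAS. It was 50.7-fold higher (adjusted p = 0.000376), and the adult libraries lay close together.

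Where values of 4 libraries follow each other below, they are RPKM in the order ATFB, ATAB, ATAH and ATAS. Asporin ASPN, a small leucine-rich proteoglycan, had 71.4, 5.31, 9.11 and 9.0 (adjusted p = 0.00467). Elastin ELN, the core of elastic fibres, had 297, 62.8, 42.2 and 67.2, and decorin, which binds collagen fibrils, had 3916, 1115, 755 and 1155. Matrilin MATN4 had 13.9, 1.06, 1.28 and 1.95, and the fibroblast protease FAP had 92.1, 16.1, 10.3 and 16.3. In each of these genes ATFB lay above every adult library by more than the adult libraries differed among themselves. Thrombospondin THBS2 was the member called lower, at 6.94 RPKM in ATFB and 54.1 ± 32.3 RPKM (SD, n = 3) in the adults, and its adult values ranged from 18.8 to 82.2 RPKM (adjusted p = 0.0468). This call was lost with ACTB scaling and with no filter other than 1 read. Fibulin FBLN2, with 107, 96.2, 89.7 and 117, did not differ by the test (adjusted p = 0.881).

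Of 31 collagen and collagen-processing genes, 8 (25.8%) were called higher and 2 lower. The minor fibril collagens COL11A1, with 21.8, 0.0169, 0.0612 and 0.561, and COL11A2, with 12.5, 0.131, 0.148 and 0.604, led the list. Both are also collagens of cartilage, and the cartilage collagen COL2A1, with 19.3, 0.025, 0.181 and 0.13, was called higher with them. The part of cartilage cells in these levels was not tested. Prolyl 4-hydroxylase subunits, which modify collagen chains in the endoplasmic reticulum, followed: P4HA3 had 41, 1.2, 0.548 and 2.78, and P4HA1 had 33.3, 10.1, 8.19 and 7.28. COL8A1, a short-chain collagen of vessel walls, and COL5A3 were called lower, with COL8A1 at 3.16, 25.2, 25.7 and 40.9. SPARC, at 4522 RPKM in ATFB and 5349 to 8904 RPKM in the adults, was not called.

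Of 27 matrix proteases and inhibitors, 7 (25.9%) were called higher and 3 lower, but the median log2 ratio was -0.48. ATFB lay above all adults in 11 and below all in 12, against 1459 and 2505 of the 5211 named genes tested. The membrane-bound metalloprotease MMP16 had 32.2, 4.46, 2.78 and 4.08, and the collagen-degrading cathepsin CTSK had 409, 136, 113 and 130. The protease inhibitor SERPINE2 had 56.5, 9.1, 6.61 and 7.57. Among tissue inhibitors of metalloproteases, TIMP4 (33.1, 174, 279 and 288) and TIMP3 (87.9, 220, 274 and 319) were called lower, while TIMP2 had 780, 524, 420 and 661 and was not called (adjusted p = 0.316). Basement membrane genes had 3 of 19 called lower and none higher (1 with TMM and 2 with ACTB scaling), and a median log2 ratio of -0.84. The called members included the perlecan core protein HSPG2, with 42.8, 116, 142 and 143, and the calcium-binding SMOC1, with 12.7, 122, 105 and 115. The chains COL4A1 and COL4A2 were at 280 and 221 RPKM in ATFB and above 471 RPKM in every adult library, and both had an adjusted p above 0.06. This list has long clusters, with 15 of its 19 at 4000 bases or more, the class in which ATFB had lower coverage.

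**Figure D2:**
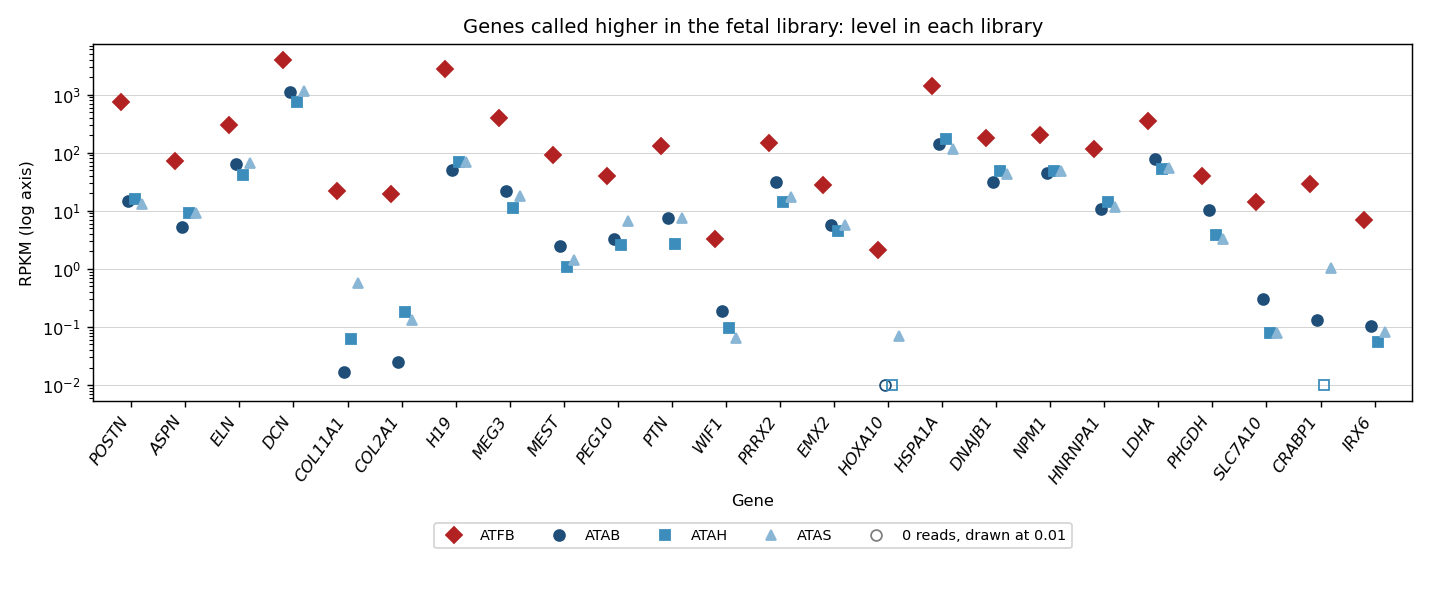
RPKM on a log axis of 24 genes called higher in ATFB, by library (red diamonds ATFB, blue symbols the adult libraries, open symbols 0 reads). ATFB lies above all 3 adult libraries in every gene shown, from 2.14 RPKM for HOXA10 to 3916 RPKM for DCN.

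Imprinted genes, which are expressed from 1 parental copy and many of which act on fetal growth, had 10 of 29 called higher (34.5%) and 3 lower. The parental origin of the reads was not tested. DCN, among the 10, is also counted in the proteoglycan list, and TFPI2 in the complement list. H19, a long noncoding RNA, had 2814 RPKM in ATFB against 50.4, 68.5 and 68.5 RPKM in ATAB, ATAH and ATAS, which is 45-fold (adjusted p = 0.000649). MEG3, the noncoding RNA of the DLK1 region, had 397, 21.8, 11.1 and 17.7. MEST, a hydrolase-like protein of mesoderm, had 90.1, 2.5, 1.08 and 1.43, and the retrotransposon-derived PEG10 had 40.1, 3.3, 2.61 and 6.62. Each of these 4 was far above all adult libraries. Paraoxonase PON3, at 6.74 RPKM in ATFB and 67.8 ± 3.62 RPKM (SD, n = 3) in the adults, was called lower, as were DLX5 and SLC22A18. GNAS, with 1146, 743, 715 and 745, and the growth inhibitor CDKN1C, with 315, 615, 175 and 255, were not called.

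Among the 18 tested genes of the insulin-like growth factor and growth hormone axis, 1 was called higher and 4 lower. The ligand IGF2 was called higher, with 3062, 142, 236 and 306. The growth hormone receptor GHR had 12.2, 127, 152 and 176, 12.4-fold lower in ATFB (adjusted p = 0.00548), and its signal carrier STAT5B had 0.731, 3.58, 4.72 and 4.38. The kinase subunit PIK3R1 had 7.28, 48.3, 69.1 and 84.7, and AKT2, a kinase of the insulin response, had 23, 86, 87.1 and 82.6. These 4 were called lower. The binding proteins IGFBP3 and IGFBP4 were not called, IGFBP3 having 179, 75.7, 363 and 387.

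The fetal RNA-binding list had 6 tested members. IGF2BP3 (4.63, 0.145, 0 and 0.0603) and IGF2BP2 (5.11, 0.483, 0.438 and 1.0) were called higher and MSI2 (1.1, 4.63, 5.31 and 3.5) lower.

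Most cell cycle and DNA replication genes leaned higher in ATFB, but few passed the test singly. In 62 of 80, ATFB lay above all 3 adult libraries and in 6 below all, against 1459 and 2505 of the 5211 named genes. The median log2 ratio was 0.88, but 3 were called higher (3.75%, near the background) and 1 lower. The called members were CDCA7 (10.9, 2.74, 1.28 and 1.38), the replication inhibitor geminin GMNN (21, 6.38, 4.47 and 6.38) and the replication clamp PCNA (32, 14.4, 11.7 and 12.7), whose call was lost with TMM scaling and without ATAH. Cyclin CCNE1, with 0.405, 2.47, 1.8 and 2.56, was called lower. The helicase subunit MCM7 had 43.8, 34.6, 34 and 44.2 and did not differ by the test (adjusted p = 0.664). With ACTB scaling 12 members (15%) were called higher, against 7.81% of all named genes.

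Of 12 cyclin-dependent kinase inhibitors and related brakes on division, none was called higher by the quasi-likelihood test or with TMM or ACTB scaling, and 2 were called lower. CDKN2B, an inhibitor of the kinases of early division, had 0.219, 6.61, 7.83 and 8.03, which is 34.2-fold lower in ATFB (adjusted p = 0.00345). GADD45G had 18.3, 55.1, 68.1 and 59.2.

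Chromatin genes had 5 of 37 called higher (13.5%) (4 with TMM factors) and none lower under the 3 scalings. Among the 18 whose symbols came from headers or RefSeq accessions, 1 (5.56%) was called higher, against 3.59% of all such genes. The heterochromatin protein CBX3 had 40.6, 8.69, 12 and 7.68, and the high-mobility-group proteins HMGA1 and HMGN2 had 33.8, 10.4, 9.75 and 12.3, and 104, 33.4, 36.3 and 51.6. The histone H3F3B had 101, 15, 26.3 and 39.1. CBX3, H3F3B and HMGN2 have near-identical copies in the genome, and how reads were split between such copies is uncertain.

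**Figure D3:**
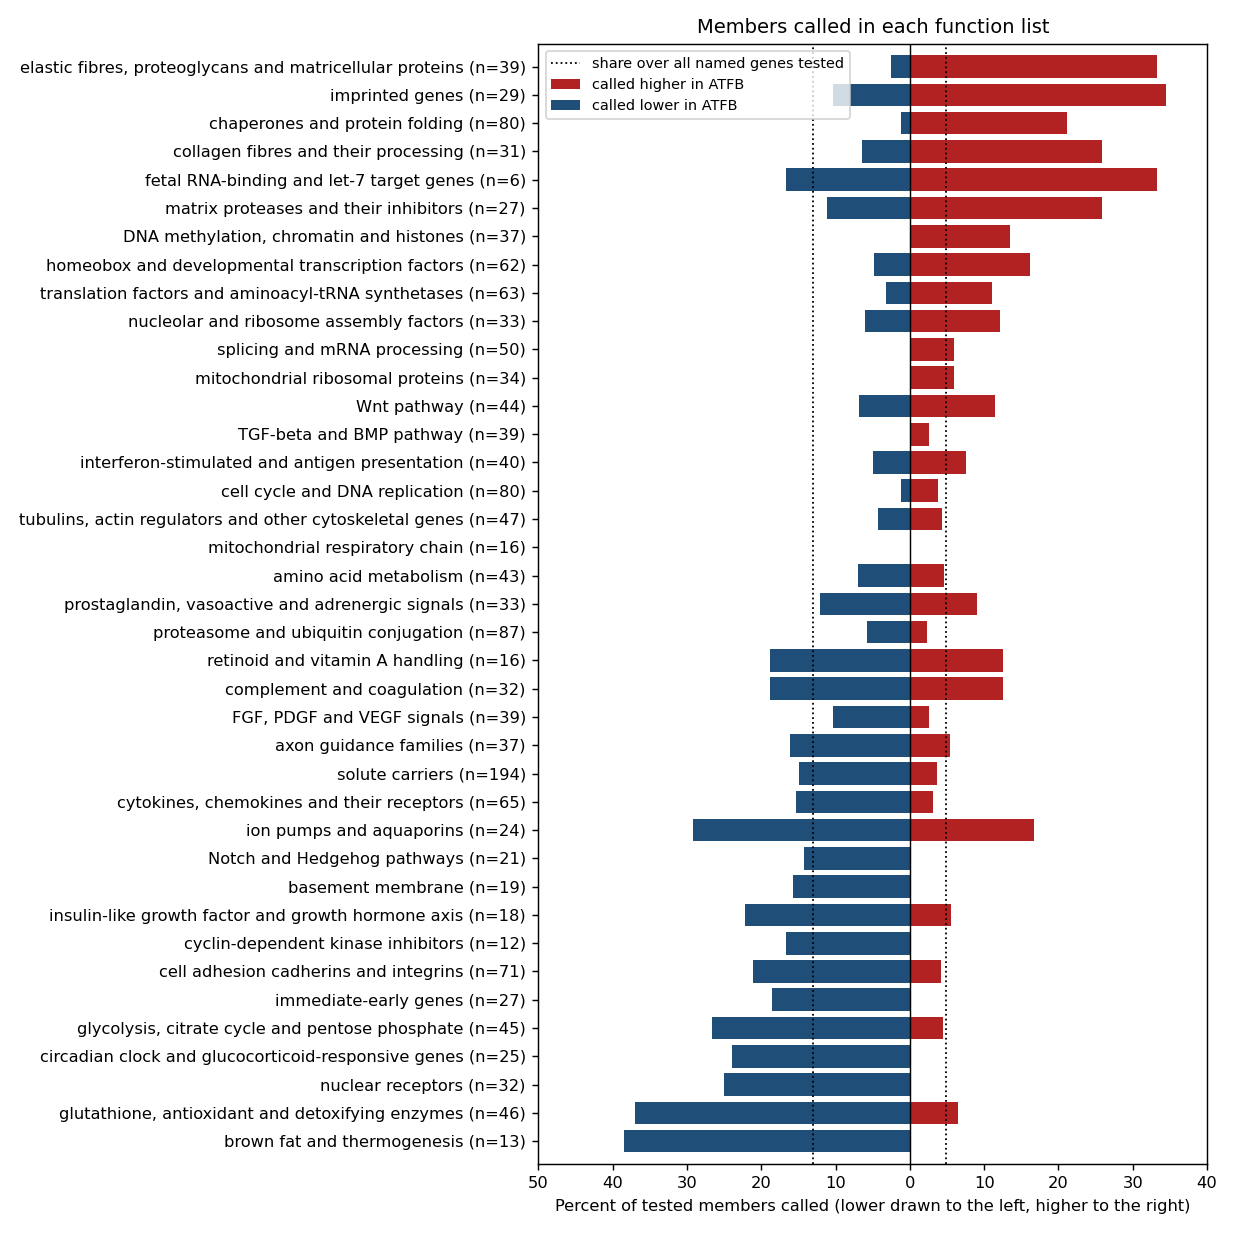
Percent of the tested members of each function list called higher (red, right) or lower (blue, left) in ATFB, with the number tested in brackets and dotted lines at the shares over all named genes (4.87% and 13.0%). Imprinted, elastic fibre and collagen lists reach 25.8% to 34.5% on the right, and brown fat and detoxifying lists reach 38.5% and 37.0% on the left.

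Wnt genes were called in both directions, 5 higher and 3 lower of 44 (9 and 3 with ACTB scaling), and the secreted inhibitors were divided. WIF1 (3.31, 0.188, 0.0974 and 0.0651) and SFRP1 (15.7, 0.73, 4.3 and 3.18) were called higher, and SFRP5, an adipocyte Wnt inhibitor, was called lower with 3.47, 91.9, 92.8 and 104, or 27.7-fold (adjusted p = 0.00282). Of ligands and receptors, WNT2B (10.5, 1.15, 1.71 and 2.23) and ROR2 (4.25, 1.28, 0.64 and 1.27) were called higher and the receptor FZD4 (9.55, 48.6, 50.3 and 79.7) lower. SFRP4, with 299, 189, 45 and 70.6, was not called, and ATAB was again nearest to ATFB.

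In the TGF-beta and BMP list, activin subunit INHBA (10.1, 1.37, 0.654 and 1.73) was the member of 39 called. With TMM factors 2 were called higher and 2 lower, and with ACTB scaling 5 higher. FSTL1, with 544, 297, 131 and 180, had an adjusted p of 0.064. In the FGF, PDGF and VEGF list, the heparin-binding growth factor PTN was called higher with 132, 7.51, 2.65 and 7.47, while 4 of 39 were called lower, among them the FGF21 co-receptor KLB (4.59, 12.6, 17.5 and 20.6) and the lipase inhibitor ANGPTL4 (20.3, 62.2, 153 and 131). The Notch and Hedgehog lists had 3 of 21 called lower, including the Hedgehog receptor PTCH1, with 0.454, 2.07, 2.2 and 3.82. Shares of lower calls in these 2 lists, 10.3% and 14.3%, were near the background. Axon guidance genes, which also shape vessels and nerves, had 2 of 37 called higher and 6 lower. Of these, the ephrin ligand EFNB3 had 2.37, 0.0965, 0.16 and 0.12 and its receptor family member EPHB3 had 6.25, 1.48, 1.25 and 1.81. PLXNA4, a semaphorin co-receptor, had 4 reads in ATFB against 472, 475 and 1110 reads in the adults, and SEMA7A had 2.18, 11.1, 14.3 and 19.7.

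Homeobox and developmental transcription factors, which set position and cell fate in the embryo, had 10 of 62 called higher (16.1%) and 3 lower. The mesenchymal factors PRRX2 (147, 31.3, 14.4 and 17.5), SHOX2 (20.9, 4.59, 4.05 and 4.56) and EMX2 (27.7, 5.61, 4.42 and 5.74) were higher in ATFB by 6.97-, 4.75- and 5.27-fold. Of the HOX genes, HOXD9 had 16.9, 4.62, 4.11 and 6.24, and HOXA10 had 2.14, 0, 0 and 0.0711. IRX6, a homeobox gene outside this list, had 252 reads in ATFB against 4, 2 and 3 in ATAB, ATAH and ATAS. RUNX1 (0.393, 2.61, 3.55 and 3.52) and DLX5 were among the 3 called lower. EBF1, a factor of adipocyte commitment, had 43.8, 32, 34.2 and 35 and was not called (adjusted p = 0.417).

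Chaperones and folding enzymes had 17 of 80 called higher (21.2%) and 1 lower. Among the 25 whose symbols came from headers or RefSeq accessions, 2 (8%) were called higher, against 3.59% of all such genes. The inducible heat-shock protein HSPA1A had 1387 RPKM in ATFB and 139, 173 and 117 RPKM in the adults, 9.71-fold (adjusted p = 0.00357). Its coding sequence is close to that of HSPA1L and of a second HSPA1 gene, so reads cannot be assigned to 1 gene with certainty. Its co-chaperone DNAJB1 had 182, 31.4, 48 and 42.6. HSP90AB1, the constitutive cytosolic chaperone, had 1013, 346, 369 and 356, and the endoplasmic reticulum members HSP90B1 and PDIA5 had 255, 117, 101 and 96.3, and 53.3, 14.7, 11 and 8.7. The small heat-shock protein HSPB6 had 403, 131, 72.8 and 59.2. HSP90B1 lost its call with TMM or DESeq2 scaling and without ATAH. Of the others, HSPA8 (587, 243, 393 and 338) and the collagen chaperone SERPINH1 (555, 530, 323 and 232) were not called. DNAJC5 was called lower.

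Translation, ribosome assembly and RNA processing lists held more members above than below the adult range. Translation factors and tRNA synthetases had 7 of 63 called higher (11.1%) and 2 lower. In 34 of the 63, ATFB lay above all adults, against 1459 of the 5211 named genes tested. None of the 9 with symbols from headers or RefSeq accessions was called higher, and with ACTB scaling 12 of the 63 (19%) were. EIF3E had 410, 116, 108 and 139, EEF1G 395, 149, 88.1 and 81.3, and EEF1A1 344, 84.6, 117 and 136. EIF2S3 was called higher with 178, 35.1, 56.7 and 39.6, but it has a copy on the Y chromosome, and the sexes of the pools differ. The scaffold EIF4G3 (1.57, 12.8, 12.3 and 16.3) and the repressor EIF4EBP2 (4.81, 36.2, 38.8 and 53.5) were called lower. EEF2, with 853, 567, 537 and 623, was not called.

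Among nucleolar and ribosome assembly factors, 4 of 33 were called higher and 2 lower. The nucleolar proteins NPM1 (200.0, 45, 49.1 and 48.4) and NCL (78.5, 26.3, 32.4 and 28.6) lay well above 3 closely grouped adult values. Splicing genes had 3 of 50 called higher, of which HNRNPA1 had 115, 10.7, 14 and 11.7, 9.51-fold (adjusted p = 0.00282). Mitochondrial ribosomal proteins had MRPS6 (82.6, 28.7, 32.4 and 31.4) and MRPL1 called of 34, and a median log2 ratio of 0.58. The shares of these 2 lists, 6% and 5.88%, were near the background of 4.87%. With ACTB scaling 8 splicing and 7 mitochondrial ribosomal genes were called higher, 16% and 20.6% against 7.81% of all named genes. The proteasome and ubiquitin list, with 2 called higher and 5 lower of 87 and a median of 0.02, did not stand apart. With ACTB scaling 5 were called higher and 2 lower, with a median of 0.28. NPM1, HNRNPA1, EEF1A1 and other genes of these lists have many processed copies in mammalian genomes, and the mitochondrial ribosomal clusters are short, with a median of 1385 bases against 2487 for all named genes.

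**Figure D4:**
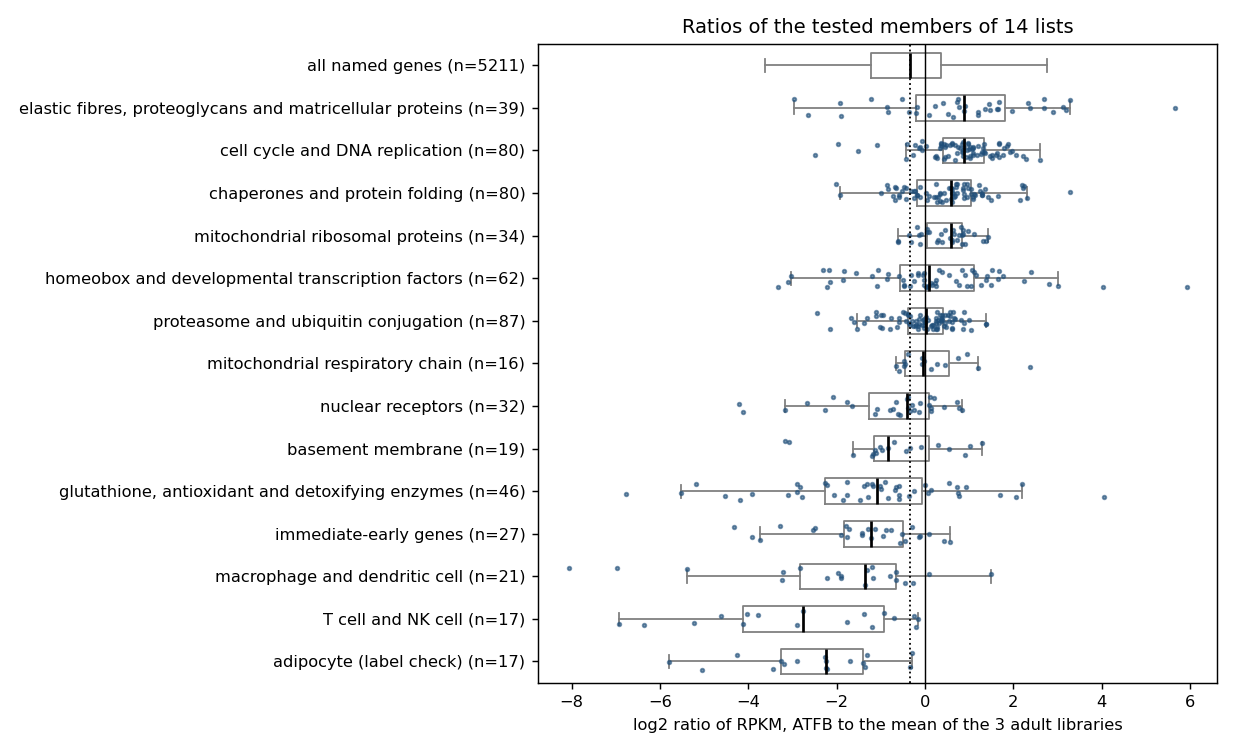
log2 ratio of RPKM in ATFB to the adult mean for each tested member of 14 lists (points), with boxes for the median and quartiles and whiskers to 1.5 times the box; the top box holds all named genes, whose median of -0.35 is the dotted line. Matrix, cell cycle and chaperone lists have medians of 0.89, 0.88 and 0.59, and T cell and macrophage markers of -2.75 and -1.35.

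Of 47 cytoskeletal genes, 2 were called higher, among them MARCKSL1 (69.6, 25.6, 24.7 and 23.3), and 2 lower, among them the heavy chain MYH9 (25.1, 94.1, 142 and 195). Vimentin VIM had 5248, 3432, 2409 and 3117 and was not called (adjusted p = 0.14). Of 80 listed respiratory chain genes, 16 had a named cluster and were tested. None of the 16 was called by the quasi-likelihood test or with TMM factors, and 2 were called higher with ACTB scaling. The synthase subunit ATP5F1B had 351, 456, 360 and 281. The median of this list was -0.04 and changed sign with ACTB scaling, to 0.21. At an unadjusted p under 0.05, 3 of the 16 differed, and the likelihood ratio test called 1 higher.

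Glycolysis, citrate cycle and pentose phosphate genes had 12 of 45 called lower (26.7%) and 2 higher. The 2 called higher stand at the end of glycolysis: lactate dehydrogenase LDHA had 357, 78.9, 53.5 and 54.6, 5.73-fold (adjusted p = 0.00645), and pyruvate kinase PKM had 392, 195, 103 and 107. PKM was at a log2 ratio of 1.0 to ATAB and lost its call with TMM or DESeq2 scaling, while with ACTB scaling 5 members were called higher. Among the 12 called lower were pyruvate carboxylase PC (16.3, 82.8, 93.2 and 94.5), malic enzyme ME1 (2.67, 68.2, 43.7 and 21.4) and the pyruvate dehydrogenase kinase PDK4 (46.2, 238, 477 and 765). In PDK4 the adult libraries differed 3-fold among themselves, yet ATFB lay below all of them. Aldolase ALDOA, with 817, 2256, 1789 and 1173, was not called.

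In amino acid metabolism 2 of 43 were called higher and 3 lower, both shares near or under the background. PHGDH, which opens serine synthesis, had 39.3, 10.4, 3.81 and 3.3, and PYCR1, which closes proline synthesis, had 85.8, 31.6, 15.5 and 7.27. The 3 called lower were FAH (14.5, 81.8, 114 and 90.3), an enzyme of tyrosine breakdown, BCAT2 (10.3, 46.8, 34.9 and 38.4), which acts on branched-chain amino acids, and PCCB (23.6, 68.2, 62.2 and 48.3), which acts on propionate. PYCR1 lost its call with TMM and DESeq2 scaling, and PCCB with these and with ACTB scaling.

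Genes tied to brown fat and heat production had 5 of 13 called lower (38.5%) and none higher, except that 1 was called higher with ACTB scaling. The beta-1 adrenergic receptor ADRB1 had 0 reads in ATFB against 74, 49 and 71 reads in the adults, so its level was at least 20.8-fold lower by the limit of 3 reads that a count of 0 allows in the fetal library. Brain-type creatine kinase CKB had 20.2, 192, 315 and 105, and the uncoupling protein relative UCP2 had 59, 142, 136 and 149. The UCP2 call was lost with ACTB scaling, which left 4 members lower, with no filter other than 1 read, and without ATAH. COX8B, a cytochrome oxidase subunit typical of brown fat and muscle and chosen here after its values were seen, had 35.5, 11.4, 7.52 and 1.7, above all adults but not past the test (adjusted p = 0.0583). The regulators PPARGC1A (1.41, 1.07, 1.34 and 2.26) and EBF2 (6.63, 7.5, 5.82 and 8.82) overlapped the adult range. Many genes of this list are also used by white adipocytes, whose markers were lower in ATFB.

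Glutathione, antioxidant and detoxifying enzymes had 17 of 46 called lower (37.0%), near 3 times the background, and 3 called higher. The xenobiotic-oxidising CYP1B1 (0.439, 11.7, 12.7 and 23.9) and CYP4B1 (0.211, 9.26, 6.63 and 13.2) and the amine oxidase MAOB (1.66, 31.2, 29 and 14.9) were lower by 36.6-, 46- and 15.1-fold. The glutathione transferase GSTA3 had 2 reads in ATFB against 673 in the adults together, a ratio of 109 with an exact 95% binomial interval of 30 to 899. Haem oxygenase HMOX1, called higher, had 138, 43.5, 41.1 and 44, and the endoplasmic reticulum peroxidase GPX7 had 129, 45.5, 24 and 24. Erythroid markers summed to 2441 RPKM in ATFB and 84.4 to 123 RPKM in the adults, and their part in the HMOX1 level was not tested. GPX3, with 309, 108, 385 and 697, was not called.

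Of 194 solute carriers, 7 were called higher (3.61%) and 29 lower (14.9%), both near the background. SLC7A10, a transporter of small neutral amino acids known from brain and white adipocytes, had 14.1, 0.299, 0.0774 and 0.0775, 92.9-fold higher in ATFB (adjusted p = 0.00279). SLC38A5, a glutamine carrier, had 6.07, 2.16, 1.05 and 1.4. The mitochondrial carriers SLC25A34 (4.96, 146, 180 and 112) and SLC25A35 (1.82, 19, 20.1 and 40.2) were lower, and the bile acid carrier SLC10A1 had no read in ATFB against 132, 71 and 34 reads, at least 25.3-fold lower. Among ion pumps and aquaporins 4 of 24 were called higher and 7 lower. AQP3, a glycerol and water channel, had 0.693, 22.3, 36.5 and 44.9, while AQP9, another glycerol channel, had 3.08, 0.727, 0.822 and 1.03. The chloride channel protein CLIC1 had 359, 88.8, 63 and 71.7. ATP12A had 2 reads in ATFB against 466, 361 and 54 reads in the adults.

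**Figure D5:**
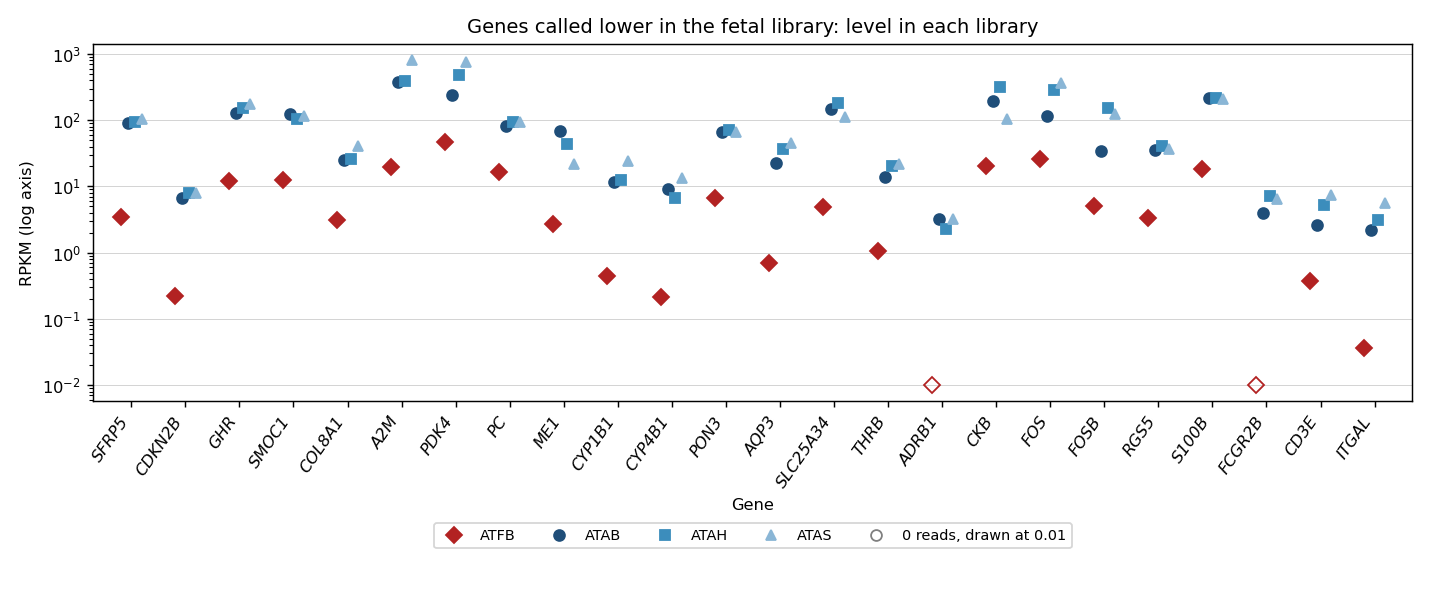
RPKM on a log axis of 24 genes called lower in ATFB, by library (red diamonds ATFB, blue symbols the adult libraries, open symbols 0 reads). ATFB lies below all 3 adult libraries in every gene shown, with 0 reads for ADRB1 and FCGR2B.

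Nuclear receptors, through which fat answers to steroid and thyroid hormones, had 8 of 32 called lower (25.0%) and none higher by the quasi-likelihood test or with TMM or ACTB scaling. The thyroid receptor THRB had 1.06, 13.9, 20 and 21.6, 17.5-fold lower (adjusted p = 0.00619). The oestrogen receptor ESR1 had 1.54, 9.09, 6.97 and 6.13, and the bull, heifer and steer libraries lay close together and well above ATFB. The vitamin D receptor VDR had 2 reads in ATFB against 115 in the adults together. NCOR1, a corepressor, had 22.3, 22.6, 31 and 34.4 and was not called.

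Circadian and glucocorticoid-responsive genes had 6 of 25 called lower and none higher by the same 3 scalings. The clock genes PER2 (3.46, 9.28, 20.8 and 17.8) and PER3 (0.806, 2.27, 3.53 and 3.25), the output factor HLF (1.71, 6.07, 9.54 and 9.26) and the mineralocorticoid receptor NR3C2 (0.466, 1.84, 2.78 and 4.36) were among them. NR1D1 and DBP, with 15.6 and 27.5 RPKM in ATFB against at most 10.3 and 24.7 RPKM in the adults, were above the adult range and not called. The hour of sampling is not given in the sources used here.

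Immediate-early genes, transcribed within minutes of a stimulus, had 5 of 27 called lower (18.5%) and none higher under any of the 3 scalings. FOS had 26.2, 115, 287 and 363, FOSB 5.11, 34, 153 and 122, and EGR1 16.7, 62.2, 249 and 359. ATAB was the lowest adult library in each of these, and the adult values differed 3- to 6-fold among themselves. JUN (123, 151, 229 and 244) and ZFP36 (231, 201, 564 and 864) were not called. By the methods the tissue was frozen at once after slaughter, and the embryos came from slaughtered cows. The part of handling time in these levels was not tested.

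Prostaglandin, vasoactive and adrenergic genes had 3 of 33 called higher and 4 lower. The synthases PTGES (77, 21.3, 25.7 and 30.4) and PTGIS (120, 29.1, 33.4 and 54.8) and the degrading enzyme HPGD (42.9, 5.57, 6.33 and 11.5) were higher in ATFB. The 4 called lower were receptors: besides ADRB1, the adenosine receptor ADORA1 had 1.83, 12.4, 13.5 and 18, the prostaglandin D receptor PTGDR had 1.34, 8.52, 13.2 and 12.1, and the natriuretic peptide receptor NPR1, which drives lipolysis, had 6.72, 27.2, 38.8 and 47.8. In the retinoid list 2 of 16 were called higher and 3 lower, or 3 and 1 with ACTB scaling. RARRES1 had 292, 22.6, 50.7 and 26.8, and the most-read cluster of CRABP1, a retinoic acid binding protein, had 408 reads in ATFB against 2, 0 and 15 in the adults. ALDH1A1, which makes retinoic acid, had 62.9, 260, 294 and 317.

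Macrophage and T cell markers had large shares called lower in ATFB. Of 21 measured macrophage and dendritic cell markers, 10 (47.6%) were called lower and none higher under the 3 scalings, and their summed level was 271 RPKM in ATFB and 534 to 823 RPKM in the adults. VSIG4, a complement receptor of resident macrophages, had 3.54, 26.1, 41.3 and 32.2. FCGR2B, the inhibitory Fc receptor, had no read in ATFB against 94, 166 and 152 in the adults, at least 44.6-fold lower, and CD1A and FLT3 also had none. CD14, with 53.1, 56.5, 54.7 and 81.4, and CD163, with 21.1, 37.6, 32.7 and 39.4, were not called.

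Of 17 tested T cell and NK cell markers 6 were called lower. The T cell receptor chain CD3E had 0.372, 2.64, 5.24 and 7.54, and CD3D and CD2 had 2 reads each in ATFB. IL2RB and IL7R, the receptors of interleukins 2 and 7, had no read there, nor did the granzymes GZMA, GZMB and GZMK, KLRB1 or NCR1. GZMB, GZMK, KLRB1 and NCR1 were not called. In ATAB, ATAH and ATAS 1, 1 and 0 of the 21 measured markers had no read. The whole list summed to 20.6 RPKM in ATFB and 34.7 to 57.8 RPKM in the adults. TCF7 (5.6, 7.97, 5.65 and 5.73) and NKG7 (8.29, 9.98, 7.49 and 11.9) were not called and made up most of the ATFB sum. In the B and plasma cell list the immunoglobulin chain IGHG1 was called lower, with 0 reads in ATFB against 26, 978 and 701 in the adults, and it was not called with TMM or ACTB scaling. IGHM had 7.1, 7.46, 109 and 75.3. ATAB was the adult library nearest to ATFB in both. Of 23 listed neutrophil and mast cell markers 4 were tested. None of the 4 was called by the quasi-likelihood test or with TMM or ACTB scaling, and none had an unadjusted p under 0.05.

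Integrins and cadherins had 15 of 71 called lower (21.1%) and 3 higher. The leukocyte integrins ITGAL (2 reads against 127, 173 and 308) and ITGAD (0 against 52, 25 and 69) were among those called lower, as were the epithelial cadherin CDH1 (0.146, 2.58, 3.03 and 1.62) and ITGA3 (0.484, 3.76, 7.14 and 9.23). The hyaluronan receptor CD44, called higher, had 184, 74.4, 41.1 and 47.4. Cytokine and chemokine genes had 2 of 65 called higher, the decoy receptor IL1R2 (5.35, 0.139, 0.288 and 0.77) and IL10RB, and 10 lower (15.4%), including CSF2RB (0.34, 3.88, 4.89 and 8.89) and IL10RA (0.803, 5.18, 4.89 and 10.6). The leukocyte markers above moved with these genes, and their part was not tested. IL10RB lost its call with TMM or DESeq2 scaling and without ATAH. With ACTB scaling 4 cytokine and chemokine genes were called higher and 7 lower.

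Complement and coagulation genes were called in both directions, 4 higher and 6 lower of 32. Complement factor CFB (459, 150, 105 and 80.5) and the anticoagulant receptor PROCR (132, 37, 58.1 and 52.9) were higher. The broad protease inhibitor A2M had 19.4, 382, 390 and 803, 27.1-fold lower (adjusted p = 0.00683), the endothelial clotting factor VWF had 22.3, 95.8, 143 and 183, and clusterin CLU had 527, 2001, 3820 and 2669. Complement C1S (199, 137, 195 and 269) and its inhibitor SERPING1 overlapped the adult range. Of 40 interferon and antigen presentation genes 3 were called higher, the proteasome activator subunits PSME1 (190, 56, 57.5 and 80.4) and PSME2 (157, 44.3, 58.2 and 73.1) and the RNA sensor DHX58 (30.6, 5.24, 10.8 and 13.5). CD74, the class II invariant chain, was called lower with 206, 624, 900 and 1663, as was BOLA-DQB, whose reads may be shared with other class II genes. Neither of these 2 was called lower with ACTB scaling, by which 6 of the 40 (15%) were called higher, against 7.81% of all named genes. PSME1 and PSME2 lost their calls without ATAH, and DHX58 with no filter other than 1 read.

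Markers of tissues next to fat were checked as well. In the epidermis list 34 members were measured and 25 tested, of which 6 were called higher and CDH1 lower. KRT13 had 182 reads in ATFB and none in the adults, at least 187-fold higher by a limit of 3 reads over the adult group. KRT14, the keratin of basal skin cells, had 147 reads against 0, 2 and 2, KRT4 134 against 0, 2 and 0, KRT15 129 against 0, 2 and 0, and KRT17 99 against 0, 0 and 2. These levels were low, from 3.94 to 6.94 RPKM in ATFB. These keratins passed the read filter through ATFB alone, so the share of members called depends on that filter. KRT19 ran the other way, with 1.73, 127, 20.3 and 4.13, so the summed list, 108 RPKM in ATFB, fell within the adult range of 45.6 to 196 RPKM. Cartilage and bone markers summed to 28.2 RPKM in ATFB, within the adult range of 13.6 to 71.5 RPKM. The upper end came mostly from SOST in ATAH, and without SOST the ATFB sum would lie above all adults. The cartilage collagen COL2A1 had 1459 reads in ATFB against 2, 14 and 10, that is 19.3 RPKM against 0.112 ± 0.0796 RPKM (SD, n = 3, adjusted p = 0.00163), and ALPL had 6.65, 2.36, 2.29 and 2.7. SOX6, another cartilage gene, was called lower with 4 reads against 22, 64 and 46 (adjusted p = 0.0474), a call lost with ACTB scaling. DMP1 and PHEX had no read in ATFB, while 3, 1 and 3 of the 11 measured markers had none in ATAB, ATAH and ATAS. SOST (0.717, 8.04, 65.9 and 3.72) and COMP (0.798, 2.42, 1.22 and 11.3) lay below all adults and were not called (adjusted p = 0.101 and 0.169).

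Of 42 listed skeletal muscle markers 14 had a named cluster, and those without one included MYH1, MYH7 and TNNT3. The 14 summed to 34.3 RPKM in ATFB and 59.1 to 67.3 RPKM in the adults. MYH4 and MYOD1 had 0 reads in ATFB, and 2 of the 14 had 0 reads in ATAH. MYH8, the perinatal myosin, was called higher at 79 reads against 10, 14 and 6. The myogenic cadherin CDH15 also was, with 13.6, 4.52, 3 and 1.81. Endothelial markers summed to 1190 RPKM in ATFB, within the adult range of 920 to 1753 RPKM, and PECAM1 had 106, 95.9, 116 and 150. Smooth muscle and pericyte markers summed to 596 RPKM in ATFB against 855 to 1229 RPKM, but without MCAM the ATFB sum would fall within the adult range. Of the 14 genes, 9 lay below all adults and 4 above, against 2505 and 1459 of the 5211 named genes tested. The 3 called lower were the pericyte gene RGS5 (3.31, 36, 40.9 and 37.2), the adhesion molecule MCAM (58.3, 396, 671 and 666) and SYNPO2 (2.33, 11.2, 15.3 and 21.8). The potassium channel KCNJ8 was called higher (41.1, 11.4, 12.6 and 13.6), and ACTA2 was not called. Of 14 tested nerve and Schwann cell genes 2 were called higher, among them SOX10 (2.34, 0.352, 0.494 and 0.86), and 1 lower, S100B, which adipocytes also make (18.1, 215, 219 and 209). The summed nerve list was 201 RPKM in ATFB and 302 to 319 RPKM in the adults. S100B was the larger part of each adult sum, and without it ATFB would lie above all adults. PMP22, with 140, 52.4, 52.4 and 74.1, was above all adults and not called.

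Some of the 15 genes with the largest ratios in each direction belong to none of these lists. CDH7, a cadherin of neural crest cells, had 186 reads in ATFB against 0, 4 and 0. Those absent or nearly so in ATFB were the potassium channel KCNH3, with 0 reads against 134, 271 and 186 and at least 64-fold lower, the vesicle proteins SYT15 (0 against 56, 72 and 133) and RAB3B (6 against 814, 538 and 946), and the lipid flippase ATP8A1 (0 against 40, 74 and 65). The stress hormone receptor CRHR2 had 0 reads against 37, 96 and 56, the glycosyltransferase B3GNT6 had 0 against 59, 43 and 93, and the kinase STYK1 had 0 against 51, 50 and 37. MS4A7, a macrophage membrane protein, had 0 against 49, 32 and 57. AKAP6, an anchor of protein kinase A, had 1 read in ATFB against 251 in the adults together, a ratio of 81.1 with an exact 95% interval of 14.4 to 3.21e+03.

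Among clusters without a gene symbol and with at least 1000 reads, 3 per direction had the largest ratios. The headers name 4 of them in words or in part. Higher in ATFB were an expressed sequence tag from a liver library, with 3132 RPKM against 22.6 ± 5.07 RPKM (SD, n = 3), an artiodactyl-specific sub-telomeric protein, with 105 RPKM against 0.57 ± 0.411 RPKM, and a 3′ tag, with 141 RPKM against 1.58 ± 0.416 RPKM. The 3′ tag shares 280 words of 20 bases with POSTN on the opposite strand, and both were called higher. The frame of the liver tag opens like that of an alpha-type globin chain, a gene class left out here. Lower were an L-threonine dehydrogenase, with 0 reads against 390, 519 and 645 (at least 168-fold), a cluster labelled Fc-gamma-RII-D, with 0 against 277, 522 and 271 (at least 115-fold), and a cytochrome P450 of subfamily 2B, with 0.916 RPKM against 240 ± 64.3 RPKM. The Fc-gamma-RII-D cluster shares 403 words of 20 bases with FCGR2B, so these 2 are not separate evidence. The start of the coding frame, 90 bases with the start codon in capitals, is shown from the deposited cluster sequences for the 5 clusters that have such a frame, since a name alone does not fix which gene of a family the reads came from. For the liver tag it is the longest open reading frame on the given strand, and for the others the deposited coding range.
Liver tag: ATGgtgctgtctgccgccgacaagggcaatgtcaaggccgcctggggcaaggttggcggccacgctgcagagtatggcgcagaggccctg
Sub-telomeric protein: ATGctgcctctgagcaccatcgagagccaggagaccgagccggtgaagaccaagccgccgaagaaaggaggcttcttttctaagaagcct
L-threonine dehydrogenase: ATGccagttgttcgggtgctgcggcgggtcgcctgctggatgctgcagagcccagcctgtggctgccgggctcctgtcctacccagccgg
Fc-gamma-RII-D: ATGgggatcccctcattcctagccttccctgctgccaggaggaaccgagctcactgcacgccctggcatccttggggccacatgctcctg
Cytochrome P450 subfamily member: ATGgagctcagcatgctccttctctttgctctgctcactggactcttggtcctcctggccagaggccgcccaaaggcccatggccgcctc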

How the data were processed

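RNA of subcutaneous adipose tissue was pooled from 5 animals per library, selected for poly(A), fragmented, primed with random hexamers and sequenced on the Illumina platform, per the labels and the study's methods. The deposited files give, per UniGene cluster, the authors' count of uniquely matched reads, the percent of its bases covered (coverage percent, deposited by the authors) and the authors' RPKM. The methods name SOAPaligner on the masked bosTau7 genome, first with no mismatch and then with fewer than 3, and the labels' notes name CASAVA; how reads were assigned to clusters, and whether strand was used, is not given in the sources used here. In each library more clusters had 2 reads (2229 to 2360) than 1 read (1544 to 1615), and reads are not independent molecules. Intervals and limits cover counting error only.

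Symbols came from the deposited sequence headers for 4428 clusters, from RefSeq accessions for 8, and from a symbol or full name in the description for the rest of 5961, partly by hand, and 32 of those names were added after the calls had been seen. Each symbol is its most-read cluster. Fit: edgeR 4.0.16 (glmQLFit, glmQLFTest; R 4.3.3) on counts, library totals as the scaling, clusters kept by filterByExpr (minimum count 10), Benjamini-Hochberg adjustment over 25584 clusters; the biological coefficient of variation was 0.324. The filter asked for enough reads in as few as 1 library, the size of the fetal group, so a cluster could be tested through ATFB alone. A library with 0 reads entered ratios as 0.5 reads. ATFB was compared with the 3 adult libraries as 1 group, and called genes also had to differ from each by a log2 ratio of 1. In simulated counts for these 25584 clusters, 64 of 100 changed 4-fold and 100 of 100 changed 16-fold were called, as were 31 unchanged clusters (0.122%). The changed clusters were drawn from those with a mean of at least 100 reads. All libraries were given the same fitted spread, so low counts and a fetal spread unlike the adult one were not covered. Alternatives were TMM, ACTB or DESeq2 1.42.0 scaling, other filters, tests and thresholds, and leaving out each adult library.

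Genes were named by rule: in each list up to 4 called members per direction with the largest ratio to the nearest adult library and at least 100 reads over the 4 libraries, the uncalled members with the most reads, the 15 symbols per direction with the largest such ratios, and 3 unnamed clusters per direction. Further members of a list are given as examples where the count needed them. The lists and the comparison were chosen with earlier results of these data known. Some genes that the rule names are not reported here. No genome position was used.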

Additional observations from a re-analysis of the deposited data

How the results depend on the processing

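The counts of clusters called higher, clusters called lower and genes called were 1630, 2056 and 930. With ACTB scaling 2629 clusters were called higher. The likelihood ratio test called 2485 higher and 3199 lower. At an adjusted p of 0.001 the quasi-likelihood test called 7 higher, 0 lower and 3 genes. With a log2 ratio of at least 2 the counts were 579, 1112 and 399. The other planned settings (TMM, DESeq2, read filters, binomial tests, summed clusters) kept all 3 counts within 1.5 times. No cluster was called in the direction opposite to its first call with TMM, ACTB or DESeq2 scaling, another filter or threshold, the likelihood ratio or binomial tests, or without ATAH or ATAS. Directions were not compared for summed clusters. Leaving out an adult library gave 0 to 2267 clusters higher, 0 to 2652 lower and 0 to 1214 genes. The 0 counts came without ATAB, where the adjusted p of edgeR's quasi-likelihood test reached 0.0642 at the lowest and 9464 clusters passed 0.05 unadjusted. The likelihood ratio test with an adult library left out, chosen after seeing the data, called 1650 to 2943 higher, 2045 to 4798 lower and 813 to 1757 genes, the highest counts without ATAB. With symbols from headers and RefSeq accessions alone, also chosen after seeing the data, 666 genes were called, 136 of 3792 tested higher (3.59%). With those symbols 59 of 102 list counts moved by more than 1.5 times, since fewer members are named: 4 of 11 elastic fibre genes (36.4%), 3 of 11 collagen genes (27.3%) and 2 of 25 chaperones (8%) were called higher.

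Of 199 genes and clusters named with a call, 8 lost it with ACTB scaling (BOLA-DQB, CD74, CFD, IGHG1, PCCB, SOX6, THBS2 and UCP2) and 7 with TMM (HSP90B1, IGHG1, IL10RB, PCCB, PCNA, PKM and PYCR1). DESeq2 lost 8 (CDH7, CRABP1, HSP90B1, IGF2BP3, IL10RB, PCCB, PKM and PYCR1). With no filter other than 1 read 6 were lost (DHX58, IGHG1, PCCB, SOX6, THBS2 and UCP2), and with binomial tests IL7R and SOX6. With at least 100 reads IGHG1 lost its call and 196 kept theirs, the rest having too few reads to be tested. Without ATAH 15 were lost (ALPL, AQP9, HMGN2, HSP90B1, HSPG2, IL10RB, MRPL1, PCCB, PCNA, PER3, PKM, PSME1, PSME2, TIMP3 and UCP2) and without ATAB all 199. An adjusted p of 0.001 lost 195 of them, and a log2 ratio of at least 2 lost 72.

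Genes described as not called changed sign under some settings, given as log2 ratios. With ACTB scaling these were ATP5F1B (0.19), C1S (0.25), CDKN1C (0.1), EBF2 (0.1), IGFBP4 (0.23), PECAM1 (0.06), PPARGC1A (0.11) and SERPING1 (0.22). With TMM they were C1S (0.03) and SERPING1 (0.01), and with DESeq2 C1S (0.08), IGFBP4 (0.01) and SERPING1 (0.05). With an adult library left out, the range was -0.22 to 0.13 for ATP5F1B, -0.22 to 0.27 for C1S, -0.46 to 0.55 for CDKN1C, -0.81 to 0.32 for GPX3, -0.15 to 0.13 for IGFBP4, -0.35 to 0.23 for PPARGC1A and -0.29 to 0.33 for SERPING1. The cause was not tested. No paired analysis was possible because the labels carry no replicate numbers and ATFB is a single library. With 1 fetal library, counts limit the precision of a gene's level and do not show how fetal pools vary.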
